A study of Mus musculus with 4 samples.

Results

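The genes described are 51 axon guidance ligands and receptors, chosen by name from the 42458 rows of the count table: semaphorins, plexins, neuropilins, Slits and Robo receptors, netrins and their receptors, Eph receptors, ephrins and the Nogo receptor gene Rtn4r. All 51 were found by exact name, 24 of them coding for ligands and 27 for receptors. RNA was sequenced from 4 wildtype mice of strain C57BL6, with 1 library of 50 cells per mouse. Per the labels, each mouse carried AAV2-CAG-tdT, an adeno-associated virus for the red fluorescent protein tdTomato, which had been given into a brain ventricle, and red cells of the dissociated spinal tissue around the central canal were sorted as an enrichment for CSF-cNs, the cerebrospinal fluid-contacting neurons that reach into the fluid of the canal. The CAG promoter in the name of the virus is a general promoter, so the construct does not itself select neurons. The labels used here give no age, and all 4 libraries belong to 1 group, so levels and their spread over mice were measured and no treatment was compared.

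Guidance ligands steer growing axons, and in adult tissue the same genes act in immune, glial and vascular cells. Semaphorins bind plexins, and the secreted class 3 members do so mostly through a neuropilin co-receptor. Slits repel axons through Robo receptors, netrins attract through Dcc and repel through Unc5 receptors, and ephrins, which are held in the membrane, signal with Eph receptors between touching cells. Around the central canal, such cues are best known from development, when netrin and Slit of the midline guide crossing axons.

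The libraries held 83007030 to 115479640 counts, and values in lists of 4 are given in the order of mice 1, 2, 3 and 4. Levels are in CPM, counts scaled to a common library size of 1000000 with TMM factors. In these whole-transcript libraries CPM grows with transcript length, so genes are compared with each other only on a length-scaled level, which is counts per base of exon brought to a sum of 1000000 per library. A level of 0 allowed up to 0.0278, 0.0321, 0.0348 and 0.0334 CPM (3 counts; these limits and all intervals hold for counting error alone). Cell type markers differed between the libraries. The 8 CSF-cN markers summed to 20.3, 12.9, 941 and 846 CPM, with Pkd2l1 at 17.9, 0.193, 664 and 690 CPM, so the libraries of mice 1 and 2 go against their label. The row of the injected construct, whose red protein was the basis of the sort, held 5, 58, 13533 and 153379 counts (0.0463, 0.621, 157 and 1709 CPM) and was thus near 0 in the same libraries. All 10 microglia markers had counts in every library and summed to between 46140 and 76960 CPM, while the 10 oligodendrocyte markers summed to 14650, 224, 18890 and 425 CPM. The 8 neuron markers summed to 129, 73.2, 1059 and 389 CPM, the 8 astrocyte markers to 157 to 955 CPM, and the 8 ependymal, 4 endothelial and 4 mural markers to at most 68.5, 23.1 and 2.62 CPM. In bulk RNA, fewer cells of a type and less RNA per cell cannot be told apart.

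Few guidance genes were well above 0 in every library, and many more had their counts in only 1, 2 or 3 of them. Of 204 member values, 74 (36.3%) had no count. In the libraries of mice 1 to 4, 32, 27, 38 and 33 of the 51 members had a count. Of all 42458 rows, 15773, 15869, 17291 and 16893 did, so the table as a whole was emptier. Only 8 members reached 1 CPM in all 4 libraries, namely Sema4a, Sema4d, Sema4g, Plxna4, Plxnb2, Nrp1, Nrp2 and Efnb1, and 15 reached it in none. Of the 39 members with at least 10 counts in total, 20.5% were at 1 CPM in every library, against 53.7% of the 18522 genes that passed the same filter. In no library at 1 CPM were 7.69% of these members, against 14.5% of these genes. Most of the 15 members had too few counts to pass the filter. The members summed to 655, 597.5, 653 and 471 CPM. Mouse 3 had the highest value of 21 members, and mice 1, 2 and 4 had that of 8, 6 and 8. The library of mouse 3 also had the most rows with a count, and this tally was not made for all genes.

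**Figure D1:**
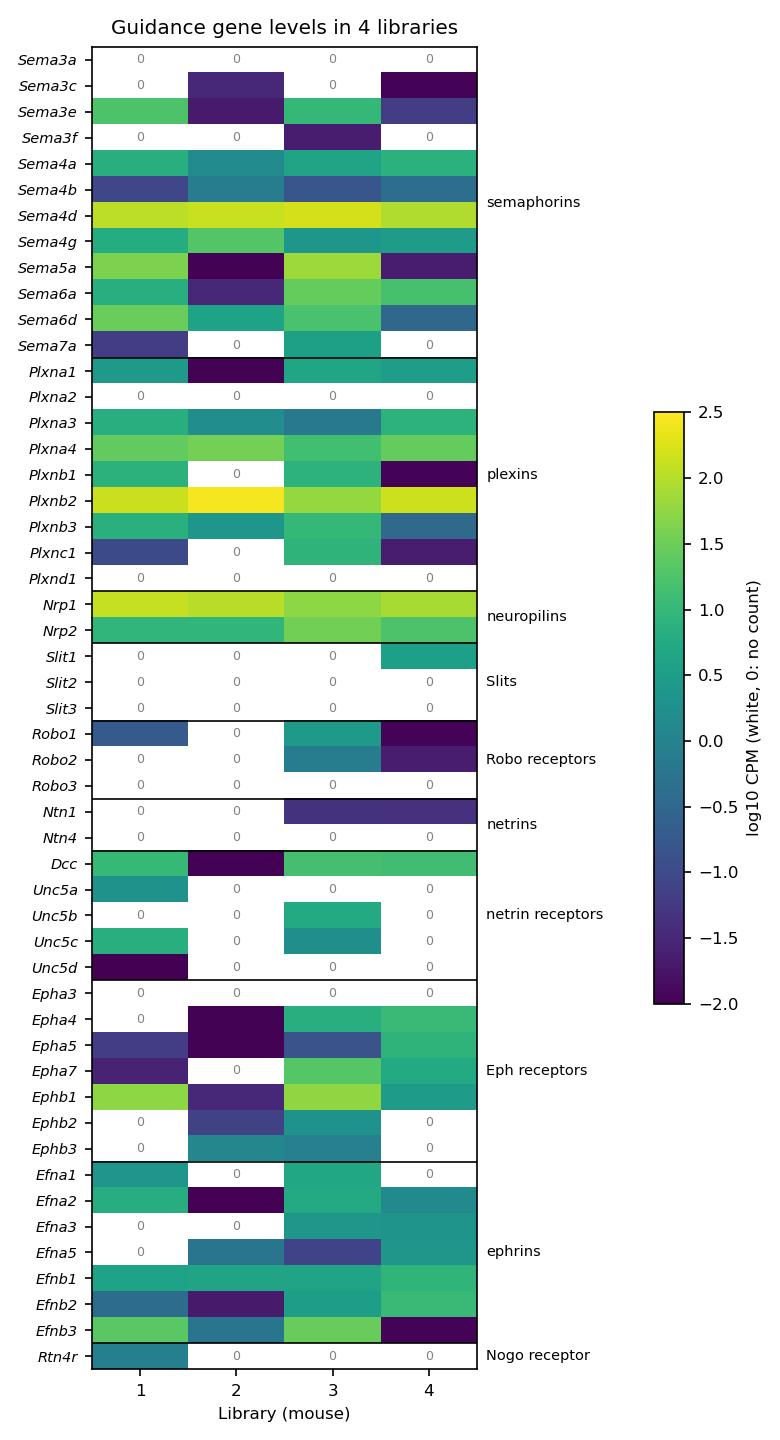
Levels of the 51 guidance genes (rows, by family) in the libraries of mice 1 to 4 (columns), as log10 CPM, with white cells and a 0 where no count was found. Sema4d, Plxnb2 and Nrp1 form the bright rows in every library, while 74 of 204 cells are empty.

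The ligand gene Sema4d and the receptor genes Plxnb2, Nrp1 and Plxna4 were the only members called above 10 CPM. Each gene was tested for a level other than 10 CPM over the 4 mice with edgeR's quasi-likelihood test, at a Benjamini-Hochberg adjusted p of 0.05 over all 18522 genes. That makes 4 of 39 tested members, or 10.3%, where 36.7% of all tested genes were called above. The median log2 level relative to 10 CPM was -1.33 over the tested members and -0.07 over all tested genes. These 4 genes were at 10 CPM or more in each of the 4 libraries, and together they made up 61.7%, 92.2%, 44.9% and 73.2% of the summed CPM of the members.

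Plxnb2, a plexin-B receptor for class 4 semaphorins, was at 138, 276.5, 62.0 and 143 CPM. It was highest in mouse 2 and lowest in mouse 3, a 4.46-fold range, and all 4 values were far above 10 CPM (mean 155 ± 89.2 CPM, SD, n = 4; log2 level 3.95, SE 0.19, edgeR adjusted p = 4e-06). Sema4d, a membrane-bound class 4 semaphorin, was at 112, 132, 163 and 92.3 CPM. Its range was the narrowest of the 4 called genes at 1.76-fold, with mouse 3 highest (mean 125 ± 30.2 CPM, SD, n = 4; log2 level 3.64, SE 0.11, edgeR adjusted p = 4.8e-07). Nrp1, the co-receptor of class 3 semaphorins that also binds vascular growth factor, was at 128, 105.5, 54.3 and 82.3 CPM (mean 92.5 ± 31.5, SD, n = 4; log2 level 3.21, SE 0.15, edgeR adjusted p = 3.5e-06). Plxna4, a plexin-A receptor that works with neuropilins and also binds class 6 semaphorins, was at 26.2, 36.9, 13.9 and 27.75 CPM (mean 26.2 ± 9.45, SD, n = 4; log2 level 1.39, SE 0.25, edgeR adjusted p = 0.0042). Plxnb2, Nrp1 and Plxna4 each had their lowest value in mouse 3, the library in which Sema4d was highest and the summed microglia markers were lowest. The part of cell makeup in these values was not tested.

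**Figure D2:**
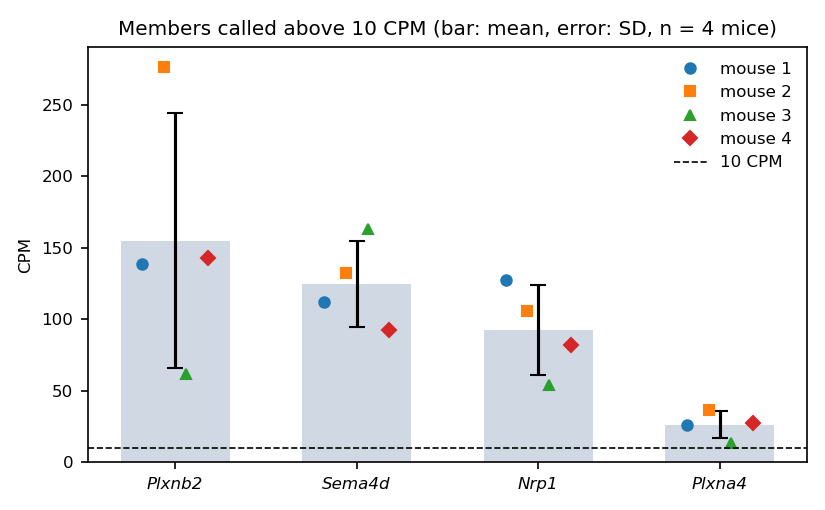
CPM (linear axis) of the 4 members called above 10 CPM, with bars for the mean, error bars for the SD and a symbol per mouse (n = 4). All 16 points lie above the dashed line at 10 CPM, and mouse 2 stands highest for Plxnb2 and Plxna4.

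On the length-scaled level the order was Plxnb2 (59.2 ± 31.8), Sema4d (49.1 ± 13.6), Nrp1 (28.0 ± 8.30) and, well below, Plxna4 (5.51 ± 1.80; all SD, n = 4). Plxnb2 and Sema4d did not differ beyond their spread: Plxnb2 was the higher in mice 1, 2 and 4 and Sema4d in mouse 3. Without mice 1 and 2, edgeR still called Sema4d, Plxnb2 and Nrp1, while Plxna4 missed the threshold (log2 level 1.12, adjusted p = 0.10) and Nrp2 passed it (1.43, adjusted p = 0.034), so the count stayed at 4, of 37 tested (37% of all tested genes were called above in that fit).

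In GRCm38, Sema4d spans chr13:51685529-51793747 and Plxnb2 spans chr15:89155549-89180788, both minus strand. Nrp1 spans chr8:128358604-128503363 (plus strand) and Plxna4 spans chr6:32144268-32588192 (minus strand). The promoter windows of the ligand gene and of the receptor gene with the highest levels are shown because both genes were high in every library. They run from 250 bases before to 50 bases after a start in RefSeq (build GRCm38.p6, strand of the gene). Sema4d has 3 such starts and Plxnb2 2, and the outermost is printed for each, chr13:51756634-51756933 and chr15:89180739-89181038. For Plxnb2 this start is that of the gene model, while for Sema4d it lies 37064 bases inside the model, so the window of its outermost GENCODE start is not shown. Capitals mark GGAAGT, the core of ETS factor sites, and ACAAAG, a core of SOX factor sites, searched on both strands; the motifs were chosen after the values were seen and do not overlap each other.

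Sema4d: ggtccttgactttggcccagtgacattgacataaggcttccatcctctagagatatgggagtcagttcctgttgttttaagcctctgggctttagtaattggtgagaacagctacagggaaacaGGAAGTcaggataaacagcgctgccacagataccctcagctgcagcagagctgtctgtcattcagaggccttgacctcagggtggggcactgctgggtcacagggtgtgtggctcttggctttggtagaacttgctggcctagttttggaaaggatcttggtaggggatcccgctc
Plxnb2: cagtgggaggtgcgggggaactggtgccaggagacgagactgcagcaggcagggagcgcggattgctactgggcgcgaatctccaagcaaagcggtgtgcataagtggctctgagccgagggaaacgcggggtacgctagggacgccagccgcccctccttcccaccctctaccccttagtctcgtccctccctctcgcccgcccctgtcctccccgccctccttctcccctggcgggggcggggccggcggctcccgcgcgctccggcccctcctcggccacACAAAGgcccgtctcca

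The Sema4d window held 1 match to the ETS core and the Plxnb2 window 1 match to the SOX core. Of all 32851 windows of this length, 23.8% held GGAAGT and 18.7% held ACAAAG, and of the 55 windows listed for 42 members, 18.2% and 12.7% did. The windows also differed in base composition, with 2 CpG and 52.0% GC in Sema4d and 27 CpG and 70.3% GC in Plxnb2, where the medians of all windows were 7 CpG and 52.7%. A match is a string of letters and not a measured binding site.

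Besides Sema4d, 11 semaphorin genes were examined. Among the class 4 members, which are membrane proteins, Sema4a was at 6.84, 1.48, 4.23 and 7.44 CPM and Sema4g at 6.04, 19.7, 2.27 and 2.94 CPM. Both were found in every library, with mouse 2 lowest for Sema4a and highest for Sema4g. Sema4b stayed under 1 CPM, between 0.0926 and 0.781. The transmembrane class 5 and 6 genes were uneven. Sema5a was at 41.2, 0.0107, 70.3 and 0.0223 CPM, which is 4454, 1, 6067 and 2 counts, so nearly all of its counts came from mice 1 and 3. Sema6a was at 6.69, 0.0321, 27.2 and 15.6 CPM, absent but for 3 counts in mouse 2. Sema6d was at 29.8, 4.14, 16.0 and 0.334 CPM, with mice 1 and 3 above mice 2 and 4. Sema7a, the membrane-anchored class 7 gene, reached 3.59 CPM in mouse 3 and had 7 counts in mouse 1 and none in mice 2 and 4.

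The secreted class 3 semaphorins, the ligands that need Nrp1 or Nrp2, were nearly missing. Sema3a had no count in any library, Sema3c had 3 counts in mouse 2 and 1 in mouse 4, and Sema3f had 2 counts in mouse 3. Sema3e, which can bind its plexin without a neuropilin, was the exception at 17.4, 0.0214, 9.97 and 0.0669 CPM, with mice 1 and 3 high. Plxnd1, the gene of the plexin that Sema3e binds, was without a count in all 4. Hence the libraries with Nrp1 at 54.3 to 128 CPM held at most 3 counts of Sema3a, Sema3c or Sema3f each, with 95% Clopper-Pearson upper limits of up to 0.0938 CPM.

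Of the 9 plexin genes, Plxna2 and Plxnd1 had no count. Plxnb1, the relative of Plxnb2 that also binds Sema4d, was at 7.83, 0, 8.02 and 0.0111 CPM, so mice 1 and 3 were high and mice 2 and 4 held 0 and 1 counts. Plxnb3, known as a receptor for Sema5a, was at 7.32, 2.44, 9.89 and 0.357 CPM and thus also highest in mice 3 and 1, the libraries with Sema5a. The plexin-A genes followed another order. Plxna1 was at 2.75, 0.0107, 4.39 and 3.38 CPM, with 1 count in mouse 2 (10.7% of its exonic bases are shared with an antisense gene), and Plxna3 was at 6.53, 1.62, 0.661 and 8.20 CPM, lowest in mouse 3. Plxnc1, the plexin gene for Sema7a, was at 0.102, 0, 8.40 and 0.0223 CPM. Plxnc1 and its ligand gene Sema7a thus had 98.5% and 98.2% of their summed CPM in the same library, that of mouse 3. Both are among the 5 members that reached 1 CPM in mouse 3 alone, and this library had the highest value of 21 members. Nrp2, the other neuropilin gene, was at 9.21, 9.31, 34.5 and 17.3 CPM (log2 level 0.81, SE 0.39, edgeR adjusted p = 0.16); it was above 10 CPM in mice 3 and 4 and just under it in mice 1 and 2.

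Slit and Robo genes were low throughout. Slit2, Slit3 and Robo3 had no count, and Slit1 had 306 counts in mouse 4 (3.41 CPM) and none elsewhere. Robo1 was at 0.185, 0, 2.64 and 0.0111 CPM and Robo2 at 0, 0, 0.823 and 0.0223 CPM, so both receptor genes were highest in mouse 3, where no Slit gene had a count. The intracellular partner gene Srgap2, whose product binds Robo receptors, did not share this and stood at 408, 636, 223 and 429.5 CPM (edgeR adjusted p = 8.5e-08); it is named here after its values were seen.

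The netrin genes Ntn1 and Ntn4 were at or near 0 while the netrin receptor gene Dcc was not. Ntn4 had no count, and Ntn1 had 4 counts in mouse 3 and 4 in mouse 4, at most 0.0464 CPM. Ntn3, a netrin gene of the wider list that is named here after its values were seen, was at 0.287, 9.17, 3.73 and 3.84 CPM and highest in mouse 2. Dcc, the receptor that mediates attraction, was at 10.3, 0.0107, 14.8 and 13.1 CPM (1114, 1, 1273 and 1175 counts). Mice 1, 3 and 4 were close to each other and the library of mouse 2 held a single count, with a 95% Clopper-Pearson interval up to 0.0596 CPM; the level did not differ from 10 CPM in edgeR's test (log2 -0.07, SE 1.06, adjusted p = 0.96). The Unc5 genes, which code for repulsive netrin receptors, were found in other combinations. Unc5c was at 6.84, 0, 1.76 and 0 CPM, Unc5b at 5.71 CPM in mouse 3 alone, and Unc5a at 1.98 CPM in mouse 1 alone, while Unc5d had 1 count. Unc5a shares 34 exonic bases with Hk3 on the opposite strand (7183, 3122, 4336 and 4042 counts), and these libraries keep no strand; Unc5a had no count in mice 2, 3 and 4, where Hk3 was counted too.

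Eph receptor genes differed in which libraries carried them. Ephb1, a receptor for the B ephrins, was at 53.5, 0.0321, 55.9 and 2.96 CPM, which put mice 1 and 3 far above the others (log2 level 1.49, SE 0.94, edgeR adjusted p = 0.26; adjusted p = 0.049 without mouse 2, which held 3 counts, so that 5 members were called). The A receptors had another distribution. Epha4, which can bind both ephrin classes, was at 0, 0.0107, 7.04 and 10.8 CPM, and Epha7 at 0.0278, 0, 20.7 and 5.55 CPM, so both were found in mice 3 and 4. The level of Epha7 in mouse 3 was at least 645-fold higher than 3 counts in mouse 2, where it had none. Epha5 reached 8.56 CPM in mouse 4 and at most 0.139 CPM elsewhere. Ephb2 reached 1.99 CPM in mouse 3, Ephb3 was at 0, 1.23, 0.904 and 0 CPM, and Epha3 had no count.

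All 7 ephrin genes had counts in mouse 3, 6 in mouse 4 and 5 each in mice 1 and 2. Efnb1, a transmembrane ligand of EphB receptors, was the even one, at 4.12, 4.31, 4.31 and 8.97 CPM. Efnb3 was at 22.3, 0.567, 27.9 and 0.0111 CPM, high in mice 1 and 3 as its receptor gene Ephb1 was. On the length-scaled level Ephb1 and Efnb3 were alike in these libraries, at 22.0 and 20.1 in mouse 1 and 25.6 and 28.1 in mouse 3. They were not alike in mouse 2 (0.0131 and 0.508) or in mouse 4 (1.31 and 0.0108). Efnb2 was at 0.389, 0.0214, 3.20 and 10.8 CPM, highest in mouse 4. Of the A ephrins, which are held by a lipid anchor, Efna1 was at 2.19, 0, 4.82 and 0 CPM and Efna2 at 6.32, 0.0107, 5.53 and 1.44 CPM, both higher in mice 1 and 3. Efna3 was at 0, 0, 2.39 and 2.17 CPM, and Efna5 at 0, 0.567, 0.0811 and 2.42 CPM. Efna3 shares 344 exonic bases, 14.1% of its length, with an antisense gene that had no count.

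Members were grouped by the libraries in which they reached 1 CPM. Among the tested members, 25.6%, 25.6% and 20.5% reached it in exactly 1, 2 and 3 libraries. Over all tested genes these shares were 12.7%, 10.7% and 8.36%. Shares for each combination of mice were not computed over all tested genes. At 1 CPM or more in mice 1 and 3 and in no other library were 6 members: Sema5a, Sema3e, Efnb3, Plxnb1, Efna1 and Unc5c. Oligodendrocyte markers were high in the same libraries, with all 10 markers at 1 CPM or more in mice 1 and 3 and 6 of 10 in mice 2 and 4, and Mbp at 1312, 31.3, 1690 and 217 CPM. The astrocyte marker sum moved alike (955, 157, 908 and 289 CPM), but 1 gene, Aldoc, made up 87.4% and 93.2% of it in mice 1 and 3. Aldoc is named here after its values were seen. The first 2 listed astrocyte markers did not follow the sum, with Aqp4 highest in mouse 4 (5.45 CPM) and Gfap in mouse 2 (23.45 CPM). At 1 CPM or more in mice 3 and 4 alone were 4 members, Epha4, Epha7, Efna3 and Efnb2. These are the libraries in which all 8 CSF-cN markers were at 1 CPM or more, where mice 1 and 2 had 2 each, and in which the neuron marker sum was 1059 and 389 CPM. The ependymal sum (0.00926, 0.524, 12.4 and 68.5 CPM) and the fibroblast sum (8.37, 0.107, 994 and 109 CPM, nearly all from Dcn) were higher there too. Which cells carried these transcripts was not tested. Another 5 members, Dcc, Efna2, Ephb1, Plxna1 and Sema6a, reached 1 CPM in mice 1, 3 and 4 and not in mouse 2, the library with the lowest oligodendrocyte, CSF-cN and neuron sums. The sum of 6 oligodendrocyte precursor markers was lowest in mouse 2 too (26.9, 3.885, 37.8 and 14.9 CPM). A single gene made up 75.05% to 93.2% of that sum, and the first listed marker, Pdgfra, had no count. Plxnb3 and Sema6d did so in mice 1, 2 and 3, and Plxna3 in mice 1, 2 and 4. A further 5 members reached 1 CPM in mouse 3 alone, 3 in mouse 4 alone, and 1 each in mice 1 and 2 alone.

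**Figure D3:**
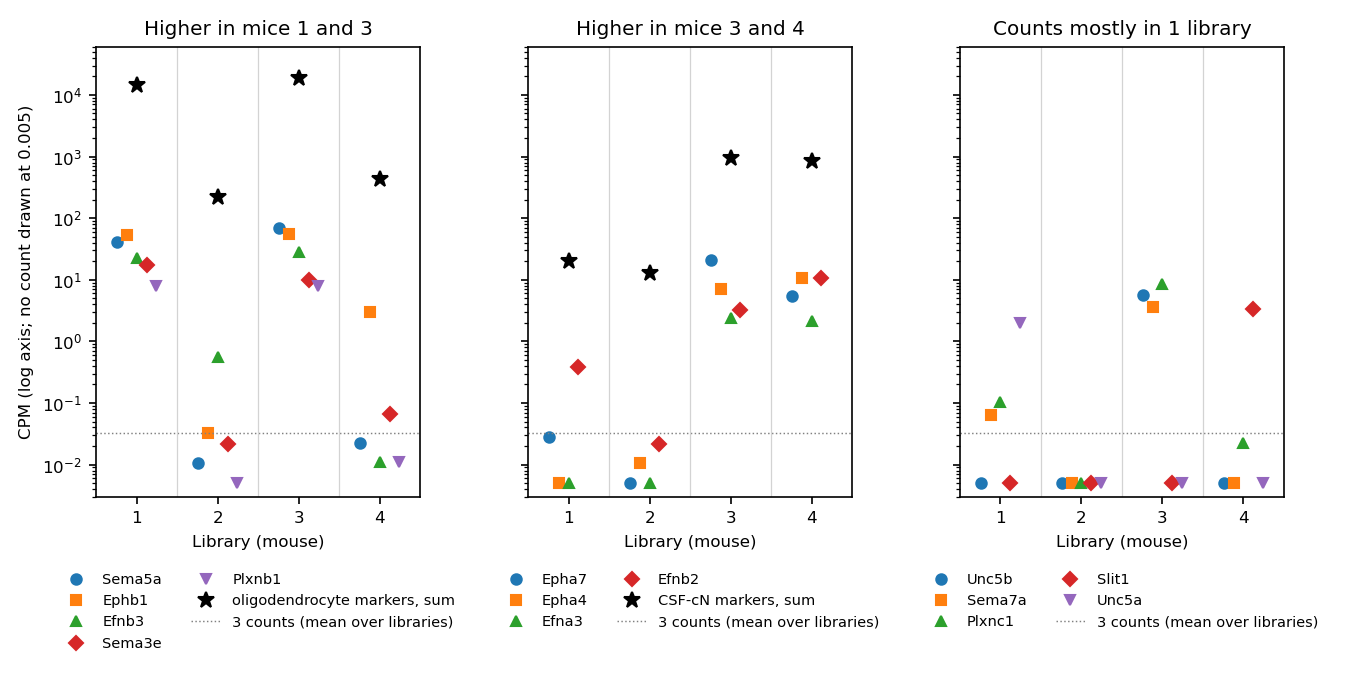
CPM (log axis, no count drawn at 0.005) per library for members high in mice 1 and 3 (left), in mice 3 and 4 (middle) and mostly in 1 library (right); stars are summed marker genes and the dotted line is the mean level of 3 counts. Sema5a and Ephb1 are above 40 CPM in mice 1 and 3, beside 14650 and 18890 CPM of oligodendrocyte markers.

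The promoter windows of Ephb1 and Sema5a are shown because the counts of this receptor gene and this ligand gene came almost wholly from mice 1 and 3. Ephb1 spans chr9:101922128-102354693 (minus strand) and Sema5a spans chr15:32244810-32696341 (plus strand), and each has 1 listed start, with windows chr9:102354644-102354943 and chr15:32244563-32244862. The same motifs were searched and neither was found, so no letters are in capitals.

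Ephb1: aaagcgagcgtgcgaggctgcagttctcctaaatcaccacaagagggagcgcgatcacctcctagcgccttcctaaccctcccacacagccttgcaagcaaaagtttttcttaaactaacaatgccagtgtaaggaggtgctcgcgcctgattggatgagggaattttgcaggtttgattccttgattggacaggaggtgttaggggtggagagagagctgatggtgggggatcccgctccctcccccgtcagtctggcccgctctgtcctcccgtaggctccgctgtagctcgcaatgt
Sema5a: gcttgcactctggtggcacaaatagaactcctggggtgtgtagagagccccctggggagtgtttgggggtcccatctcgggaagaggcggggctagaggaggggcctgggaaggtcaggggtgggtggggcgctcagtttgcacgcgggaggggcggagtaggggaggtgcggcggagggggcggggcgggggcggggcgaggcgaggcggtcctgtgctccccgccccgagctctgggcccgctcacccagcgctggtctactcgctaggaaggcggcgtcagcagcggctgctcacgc

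The Ephb1 window held 14 CpG at 55.7% GC and the Sema5a window 23 CpG at 71.3% GC, and they shared no match to either motif with the windows of Sema4d and Plxnb2. This says only that these letters are not in these windows.

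Rtn4r, whose product binds the myelin proteins Nogo, MAG and OMgp, had 96 counts in mouse 1 (0.889 CPM) and none in the other 3 libraries. The table lists 2 further rows with the same counts under numbered copies of its name, so the value is uncertain. Its relative Rtn4rl1 was at 91.8, 187, 72.0 and 171 CPM and was called above 10 CPM (log2 level 3.71, SE 0.16, edgeR adjusted p = 2.5e-06). Rtn4, which codes for the ligand Nogo, was at 380, 182, 350 and 136 CPM. Mag, the gene of a myelin ligand, was at 519, 13.9, 691 and 33.3 CPM and so high where Mbp was.

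The remaining 35 tested members were not separated from 10 CPM. edgeR called 0 members below 10 CPM, where 0.664% of all tested genes were called below. At an unadjusted p under 0.05 in the same test, 0 members were below too, where 843 of all 18522 tested genes were. DESeq2 called 0 below too, where 11% of all tested genes were called, and left the adjusted p of 14 members undefined. With limma-voom, whose means are of logarithms, 16 members fell below, 10 of them receptor and 6 ligand genes, beside 33.3% of all tested genes. Above 10 CPM, limma-voom and DESeq2 called 4 members each, as edgeR did, where 35.9% and 33.2% of all tested genes were called. In data simulated for this design edgeR called none of 50 genes placed at 1.25 CPM and limma-voom 86% of them, so edgeR's 0 does not show that the members were at 10 CPM or more. Of the 35, 12 reached 10 CPM in at least 1 library. Of all 39 tested members, 23 reached 10 CPM in no library, beside 41.4% of all tested genes. A further 4 members had under 10 counts and 8 had none, so 12 of the 51 were not tested.

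**Figure D4:**
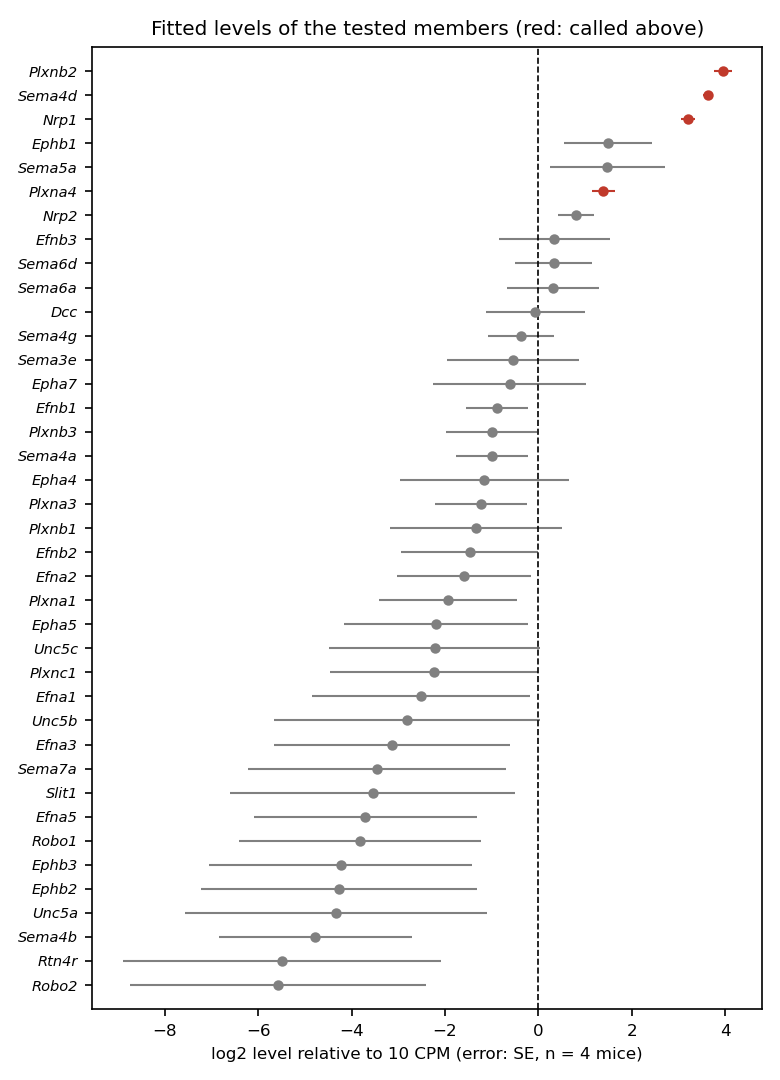
Fitted log2 level relative to 10 CPM (dashed line) of the 39 tested members (n = 4 mice). Error bars are the SE taken from the F test (absolute log2 level over the square root of F), not the spread over mice. Red marks the 4 members called above. The error bars are short for the called members (SE 0.25 for Plxna4) and longer for the others. These include members high in some libraries only (SE 0.94 for Ephb1 and 1.23 for Sema5a). They also include members that were low with counts in every library (SE 0.67 for Efnb1 and 2.07 for Sema4b).

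Other genes of the pathway were given by 4 lists. Of 26 further guidance ligands and receptors 17 were tested and 1 (5.88%) was called above 10 CPM, the gene of the neogenin ligand Rgmb (134, 80.6, 64.2 and 74.9 CPM; log2 level 3.14, SE 0.14, edgeR adjusted p = 3.1e-06). Neo1, which codes for neogenin, a relative of Dcc, was at 17.3, 2.67, 27.7 and 9.10 CPM and Epha2 at 2.30, 5.51, 0.0116 and 11.1 CPM, and neither was called. Of 37 cytoplasmic signalling genes 13 were called above (35.1%, near the 36.7% of all tested genes). They include Cdc42 (1398 ± 125 CPM), Rac1 (819 ± 107 CPM) and the actin-severing gene Cfl1 (679 ± 105 CPM; all SD, n = 4). The first 2 code for small GTPases on which plexin, Robo, Dcc and Eph signals converge, and these genes are expressed in nearly all cells. Of the 8 genes around the Nogo receptor 5 were tested and 3 (60%) called, namely Rtn4, Mag and Rtn4rl1. Of 5 other semaphorin partners 4 were tested and 2 (50%) called, shares that rest on few genes: Itgb1, the integrin gene for a Sema7a receptor (321 ± 29.7 CPM), and Cd72, a receptor gene for Sema4d known from B cells (29.2 ± 5.47 CPM; SD, n = 4, edgeR adjusted p = 5.8e-04), while L1cam was at 0, 0.385, 2.49 and 0 CPM.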

How the data were processed

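The table used, which the authors deposited, gives whole-number counts for each gene in 2 columns per mouse, taken from their numbers and names as repeat runs of 1 library of mice 1 to 4 (no label states this), and a deposited table of log2 normalized values was not used. The tools named, per the submitters' processing notes, are STAR, RSEM, DESeq2, Trim Galore and FastQC, and the build is mm10; their roles and versions and the annotation are not given here. Per the labels, the cDNA had 11 PCR cycles and no molecular identifiers are named. Runs were summed, so a mouse is 1 replicate. TMM factors were 0.935, 0.982, 1.04 and 1.05. An intercept-only quasi-likelihood model (edgeR 4.0.16, R 4.3.3) with an offset that sets 0 at 10 CPM was fitted to the 18522 genes with at least 10 counts, and its F test was computed from the deviances; an SE was taken as the absolute log2 level over the square root of F. It was tested on simulated data, where edgeR called 49 of 50 genes placed at 80 CPM and 36 of 2000 placed at 10 CPM. limma 3.58.1 and DESeq2 1.42.0 were alternatives. Exonic lengths and positions come from GENCODE M21 (GRCm38), which held all 51 members. Python 3.11.15 with pandas 2.3.3 was used for the rest. The members, gene lists, tests and alternatives were chosen with earlier results of these data known. Values are given for every member; of each pathway list the 3 genes with the highest mean and of each marker list the sum and at most its first 2 genes were named by rule, and others are said to be chosen after their values were seen.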

Additional observations from a re-analysis of the deposited data

Results flagged for a closer look

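For 11 of the 39 tested members 1 library stood apart from the other 3, its gap to the nearest being above Dixon's critical share of the range of the 4 values. Chance alone gives this in about 1 in 20 groups of normally distributed values, which skewed levels need not follow. A gene with counts in a single library always does. The share of all tested genes that meet the rule was not computed, so the 11 cannot be called an excess. In mouse 3 these were Plxnc1 (8.40 CPM), Unc5b (5.71), Sema7a (3.59), Robo1 (2.64), Ephb2 (1.99) and Robo2 (0.823 CPM). In mouse 4 they were Efnb1 (8.97 CPM), Epha5 (8.56) and Slit1 (3.41 CPM), and in mouse 1 Unc5a (1.98 CPM) and Rtn4r (0.889 CPM). Efnb1 was the only one of the 11 with at least 4 CPM in every library.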

How the results depend on the processing

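The count of 4 members above 10 CPM was 4 to 5 when any 1 mouse was left out, 4 with DESeq2 size factors, no filter, limma-voom, DESeq2, either run or without mice 1 and 2, 6 against 5 CPM (45.3% of all tested genes) and 3 against 20 CPM (25.5%). Sema4d, Plxnb2 and Nrp1 were called in all 11 alternatives that kept 10 CPM as the reference, with the highest adjusted p 4.8e-04, and Plxna4 in 10 of 11. The count below 10 CPM, 0, was 4 with no filter on counts (members with 1 to 9 counts enter the fit; 11.7% of all genes were called) and 16 with limma-voom. Pathway genes called above 10 CPM, 19, were 18 to 22 in the alternatives that kept 10 CPM (32.6% to 38% of all tested genes). They were 27 against 5 CPM and 17 against 20 CPM, beside the shares of all tested genes given above. With limma-voom, which averages logs, Sema5a (-3.14), Sema6a (-1.68), Sema6d (-0.85), Ephb1 (-1.13) and Efnb3 (-2.58) fell on the other side of 10 CPM, none of them called. Leaving out 1 mouse, levels near 10 CPM changed side, also uncalled: Sema6a from -0.44 (without mouse 3) to 0.73, Sema6d from -0.52 (without mouse 1) to 0.72, Efnb3 from -0.41 (without mouse 3; -0.04 without mouse 1) to 0.75, and Dcc from -0.37 to 0.36 (without mouse 2). Without mice 1 and 2 Sema6d was at -0.23, Dcc at 0.54 and Epha7 at 0.45. The cause was not tested. No paired analysis was possible because the 4 libraries form 1 group. With 50 cells and 4 mice, a gene missing from a library cannot be told from one missed in preparation.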

Other observations

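Some other genes of the pathway lists were uneven over the libraries too; they are named after their values were seen. Dpysl3, a collapsin response mediator that acts in semaphorin signalling, was at 0.00926, 0, 19.4 and 17.4 CPM, and Chn1, a Rac regulator that acts after EphA4, at 1.14, 6.95, 71.5 and 29.2 CPM, both highest in mice 3 and 4. Dscam, another netrin receptor gene, reached 8.18 CPM in mouse 3 and had 1 count in the other libraries together. Omg, the gene of a further Nogo receptor ligand, was at 47.1, 0.0428, 42.7 and 85.7 CPM (edgeR adjusted p = 0.079), with 4 counts in mouse 2.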
